A study of Homo sapiens with 9 samples.

Results

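The translation initiation factor genes were taken as the protein-coding genes annotated on hg19 whose symbol begins with EIF, with the 1 Y-linked gene left out, which gave 55 members of 20175 protein-coding genes. The rule used names alone and no measured value. Their promoters were followed through H3K4me3, a histone mark of active promoters (trimethylated lysine 4 of histone H3), in the established erythroleukemia cell line HEL. The mark was mapped by CUT&RUN, in which an antibody brings a nuclease to the mark in permeabilised cells and the released DNA fragments are sequenced. The control group carried a non-targeting guide (NTC, 3 libraries). The other 3 groups were CRISPR knockouts (KO, 2 libraries each) of the METTL3, the METTL14 or the WTAP gene, whose products form the complex that writes N6-methyladenosine (m6A) on mRNA. Guides of the study were carried by lentiCRISPRv2 vectors, which also encode Cas9, so the NTC cells hold a vector and the nuclease as well. Whether the KO cells were a pool or 1 clone, how long after transduction they were harvested, and whether libraries of a group came from separate cultures was not given for these libraries in the sources used here, so p-values measure only the spread between libraries, which may be technical. The comparison asks whether promoter H3K4me3 at the genes of the initiation machinery depends on the m6A methyltransferase.

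Translation initiation brings the small ribosomal subunit and the initiator tRNA to a start codon. The eIF2 complex delivers the initiator tRNA, eIF2B recharges eIF2 with GTP, eIF3 is the scaffold on the small subunit, the eIF4 factors bind the mRNA cap and unwind the leader, and eIF5 and eIF5B act up to the joining of the subunits. Stress kinases that phosphorylate the alpha subunit of eIF2 shut this path down, and in erythroid cells the heme-regulated kinase EIF2AK1 ties globin synthesis to heme supply.

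Promoter windows of 300 bases, from 250 before to 50 after the start, were taken from a RefSeq table of GRCh38.p14 and each was found once in the hg19 sequence, where the coordinates below lie. The table held 46 of the 55 members. The following 3 windows belong to members that had a peak in all 9 libraries, EIF6 (chr20:33872471-33872770, minus strand), EIF1AD (chr11:65769579-65769878, minus strand) and EIF3I (chr1:32687758-32688057, plus strand), and are shown because an NTC peak and a KO peak lay over them in every library. Capitals mark matches to 10 motifs that were searched on both strands.
EIF6: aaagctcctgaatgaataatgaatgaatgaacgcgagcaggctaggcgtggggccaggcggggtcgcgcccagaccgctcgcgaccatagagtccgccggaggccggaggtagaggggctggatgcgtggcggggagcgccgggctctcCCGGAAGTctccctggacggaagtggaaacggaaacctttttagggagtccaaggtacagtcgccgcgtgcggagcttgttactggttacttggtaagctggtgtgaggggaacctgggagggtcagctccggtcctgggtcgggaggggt
EIF1AD: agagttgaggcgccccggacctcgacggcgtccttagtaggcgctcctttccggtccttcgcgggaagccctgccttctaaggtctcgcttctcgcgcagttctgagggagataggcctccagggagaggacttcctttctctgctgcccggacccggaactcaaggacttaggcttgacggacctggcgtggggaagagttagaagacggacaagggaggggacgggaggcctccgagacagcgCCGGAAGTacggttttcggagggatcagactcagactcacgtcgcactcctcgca
EIF3I: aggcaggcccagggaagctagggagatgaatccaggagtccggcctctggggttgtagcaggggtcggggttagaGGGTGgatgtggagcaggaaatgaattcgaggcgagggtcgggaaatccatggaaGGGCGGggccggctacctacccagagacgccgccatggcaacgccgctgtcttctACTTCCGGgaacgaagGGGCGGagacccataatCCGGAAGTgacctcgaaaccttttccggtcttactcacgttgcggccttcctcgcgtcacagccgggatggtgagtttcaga

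The next 3 windows belong to the members with the highest NTC means among those that had a peak in all 3 NTC libraries and none in any KO library, EIF3D (chr22:36925164-36925463, minus strand), EIF3M (chr11:32605127-32605426, plus strand) and EIF4B (chr12:53399990-53400289, plus strand).
EIF3D: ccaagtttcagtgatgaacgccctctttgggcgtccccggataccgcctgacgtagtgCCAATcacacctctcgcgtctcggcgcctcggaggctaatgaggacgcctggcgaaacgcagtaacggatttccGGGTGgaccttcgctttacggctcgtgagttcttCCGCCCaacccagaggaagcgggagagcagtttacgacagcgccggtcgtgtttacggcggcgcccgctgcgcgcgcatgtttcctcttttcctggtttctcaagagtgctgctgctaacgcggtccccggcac
EIF3M: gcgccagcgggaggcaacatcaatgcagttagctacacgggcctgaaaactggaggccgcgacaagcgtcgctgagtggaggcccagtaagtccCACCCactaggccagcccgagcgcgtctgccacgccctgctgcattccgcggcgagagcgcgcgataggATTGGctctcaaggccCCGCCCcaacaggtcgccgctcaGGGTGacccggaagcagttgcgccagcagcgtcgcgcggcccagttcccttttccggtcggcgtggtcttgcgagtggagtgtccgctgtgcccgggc
EIF4B: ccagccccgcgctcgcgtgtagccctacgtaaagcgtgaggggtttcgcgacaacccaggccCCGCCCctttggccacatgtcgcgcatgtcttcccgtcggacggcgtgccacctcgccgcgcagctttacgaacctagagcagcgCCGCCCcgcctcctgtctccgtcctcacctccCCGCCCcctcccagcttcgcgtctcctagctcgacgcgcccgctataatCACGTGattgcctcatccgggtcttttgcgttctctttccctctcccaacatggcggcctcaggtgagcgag

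The ETS motif CCGGAAGT was in all 3 kept windows and in none of the 3 lost ones. EIF3E, EIF3H and EIF3L, which also had a peak in all 9 libraries, were not in the table. Among members in the table that were marked in all NTC libraries, the motif was in 2 of the 12 that had no KO peak. It was in 4 of the 9 that had a METTL14-KO or WTAP-KO peak. Over all members it was in 8 of 46 windows (17.4%), against 980 of 15812 protein-coding promoters (6.20%). The SP and KLF motif GGGCGG was in 32 of 46 members (69.6%, all promoters 58.5%), and in 10 of the 12 without a KO peak. The E-box CACGTG, bound by MYC and USF, was in 12 members (26.1%, all promoters 8.87%). CCAAT was in 39.1% of members (36.3% of all), the erythroid KLF1 motif CACCC in 58.7% (62.9%), the NRF1 motif GCATGCGC in 4.35% (4.26%), the YY1 motif AAGATGGC in 6.52% (3.91%) and the TATA box TATAAA in 4.35% (9.64%). No member window held the CRE motif TGACGTCA (2.59% of all) or the GATA motif AGATAA (7.55%). These counts describe letters in a window and not bound sites, and no test was made on them.

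Each library was given as its own list of peaks, with 21724 to 21941 peaks in the NTC libraries, 9369 and 9205 in METTL3-KO, 5286 and 3169 in METTL14-KO and 3160 and 3673 in WTAP-KO. Every peak carried a spike-in calibrated coverage signal, which is not in fragments, so the depth behind a value is unknown and precision is set by the number of libraries. Values below 2000 in a library were multiples of a step to within 0.1 of it, and what the step stands for was not tested. The step was 1.14 to 1.32 in the NTC libraries, 0.461 and 1.07 in METTL3-KO and 0.320 to 0.440 in METTL14-KO and WTAP-KO. The lowest peak was 30.1 to 32.0 in every list. All peaks were 150 to 2000 bp wide, and 2.00% of NTC peaks but 0.161% to 0.485% of those in the KO groups measured 1901 to 2000 bp. Whether marked stretches wider than 2000 bp were left out of the lists was not tested. Of 10 genes expected in HEL cells, 8 had promoter peaks in all NTC libraries, among them GATA1 and KLF1, while NFE2 had 1 in 1 library and SPI1 none. Of 6 markers of other cell types, 5 (CD3E, ALB, KRT5, MYOD1 and NEUROD1) had no NTC peak. The promoters of METTL3 and METTL14 had peaks in all 3 NTC libraries, and the WTAP promoter in 2, but a promoter mark does not show whether a guide cut its gene, so it checks no label. Fewer cells with the mark and less mark per cell cannot be told apart.

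A member was called marked in a library where a peak came within 1 kb of any annotated start of the gene, and its level was the signal of the largest such peak. The NTC libraries marked 41, 40 and 40 members (40.3 ± 0.577, SD, n = 3). METTL3-KO libraries marked 30 and 30, METTL14-KO libraries 21 and 12, and WTAP-KO libraries 11 and 12. All KO libraries lay below all NTC libraries, and METTL14-KO replicate 1 stood closer to METTL3-KO than its own partner did. The group means were 74.4% (METTL3-KO), 40.9% (METTL14-KO) and 28.5% (WTAP-KO) of the NTC mean, where all protein-coding genes gave 71.8%, 36.2% and 25.7%. Across the NTC libraries 37 members were marked in all 3, with mean signals from 455 to 31581 and a median of 6557, and 6 were marked in 1 or 2. A further 8 had a KO peak and no NTC peak, and the remaining 4 members (EIF4EBP3, EIF4E1B, EIF5AL1 and EIF2S3B) had no peak in any library.

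**Figure D1:**
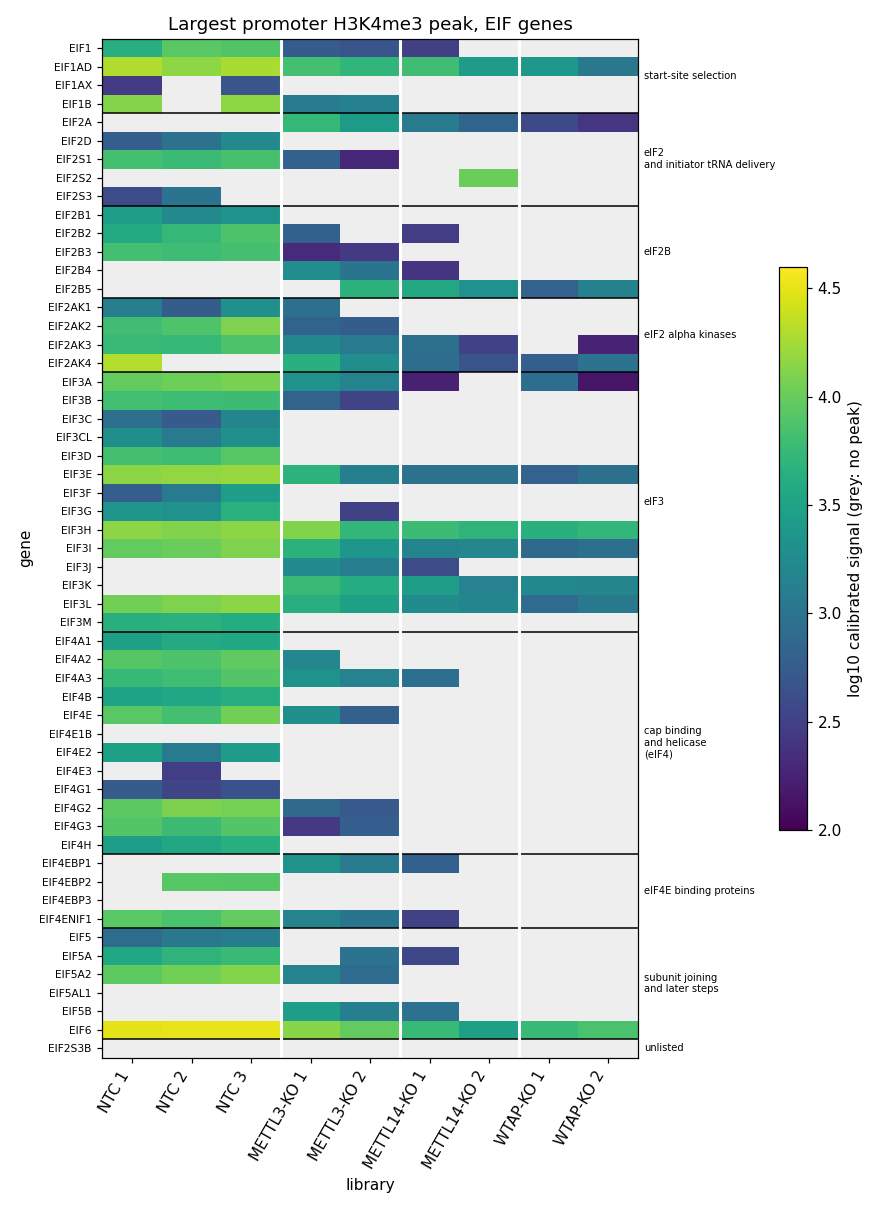
Colour gives the log10 calibrated signal of the largest promoter peak of each EIF gene (vertical axis, grouped by role) in each of the 9 libraries (horizontal axis), and grey stands for no peak. The NTC columns hold 40 or 41 marked members and the WTAP-KO columns 11 and 12, and a few genes such as EIF3K and EIF2A are coloured in the KO columns alone.

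Among the 37 members marked in all NTC libraries, 13 (35.1%) were without a peak in both METTL3-KO libraries, 24 (64.9%) none in METTL14-KO and 29 (78.4%) none in WTAP-KO. Over all 8495 genes so marked these shares were 46.3%, 73.3% and 84.9%. The same 13 members that had no METTL3-KO peak had no peak in any KO library (35.1%, all genes 45.8%), and 6 had one in all 6 KO libraries (16.2%, all genes 7.83%). Weakly marked genes lost their peaks more often, so the members were set beside genes from the same of 10 equal bins of NTC signal. In the top bin 44.7% of all genes had a peak in all 6 KO libraries and in the ninth 14.96%. EIF6, EIF1AD, EIF3E and EIF3H, which did, were in the top bin, and EIF3L and EIF3I in the ninth. At equal NTC signal 15.4 of 37 genes would have no METTL3-KO peak, 26.0 no METTL14-KO peak, 30.7 no WTAP-KO peak and 15.2 no KO peak, and 3.26 would keep one in all 6 libraries. The members' losses were below these numbers by 2.36 genes of 37 in METTL3-KO, 1.99 in METTL14-KO and 1.65 in WTAP-KO, which is near the matched share, and no test was made. METTL14-KO replicate 1 set the METTL14-KO share, since 81.1% of the members had no peak once it was left out, for which no matched share was computed.

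**Figure D2:**
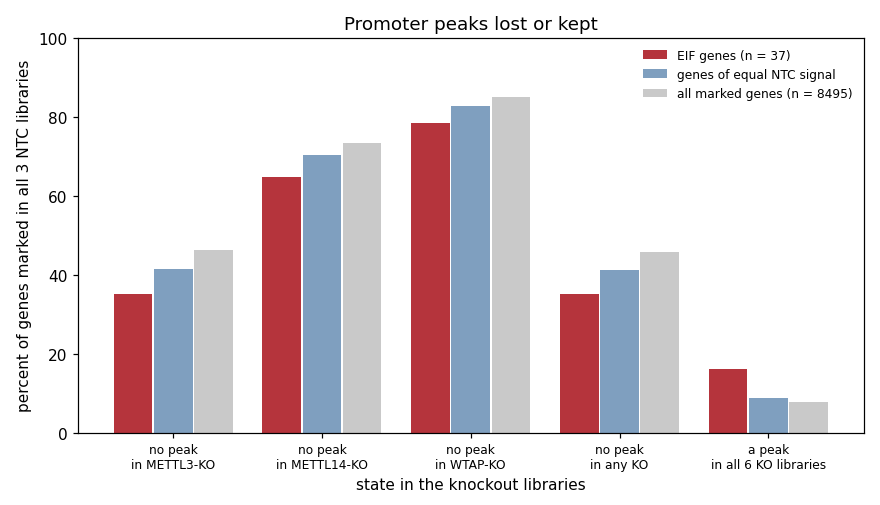
Bars give the percent of genes marked in all 3 NTC libraries (vertical axis, from 0) that were in each state in the KO libraries (horizontal axis), for the 37 EIF genes, for genes of equal NTC signal and for all 8495 genes. The EIF bars for lost peaks are lowest at 35.1% in METTL3-KO and highest at 78.4% in WTAP-KO, each under both other bars, and the bar for a peak in all 6 KO libraries is at 16.2%.

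What was left of the signal showed the same order of groups. The median member held 6.29% of its NTC mean in METTL3-KO, against 1.98% over all marked genes and 3.63% at equal NTC signal, and 0% in both METTL14-KO and WTAP-KO, as did the median gene. The 19 members with a peak in both METTL3-KO libraries held a median of 14.6% there (all such genes 16.2%), the 7 in METTL14-KO 13.7% (11.1%) and the 7 in WTAP-KO 8.04% (7.92%). The 6 members with a peak in all 6 KO libraries held a median of 20.8% over them (all such genes 16.8%).

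Testing each gene with limma on log2(signal + 30.1), with Benjamini-Hochberg adjustment over 12037 genes that had a peak in at least 2 libraries, 40 of the 49 tested members were lower over the 3 KO groups and 7 were higher, where 73% and 14.3% of all tested genes were lower and higher. In METTL3-KO 32 members were lower and 6 higher (60.9% and 14% of all genes), in METTL14-KO 37 and 3 (68.8% and 8.38%), and in WTAP-KO 37 and 2 (69.7% and 6.81%). The 40 lower members were the 37 marked in all NTC libraries and EIF1AX, EIF2S3 and EIF4EBP2, and neither EIF1B (adjusted p = 0.104) nor EIF2AK4 (adjusted p = 0.391) passed. Leaving out METTL14-KO replicate 2 raised the members higher in METTL14-KO to 6. A library without a peak has no spread, so for members with no KO peak the limma p rests on the NTC libraries. For members with no NTC peak it rests on the KO libraries. In both cases the fitted change depends on the added 30.1, and for members with no KO peak it is not given. When the libraries were centred on the 665 genes marked in all 9, which takes out a median log2 shift of -1.79 from METTL3-KO, the METTL3-KO split became 21 lower and 8 higher, from 84.2% to 72.4% lower. The shares over all genes given above are for the uncentred fit on all 9 libraries. None is given for the other fits, so their counts cannot be set against all genes.

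The member with the strongest mark was EIF6, whose product keeps the large ribosomal subunit from joining too early, and it kept the mark in every library. Its promoter signal was 30791, 32369.5 and 31584 in the NTC libraries, 13734 and 9439 in METTL3-KO, 5614 and 3027 in METTL14-KO and 5659.8 and 7175 in WTAP-KO. All 6 KO values lay below all NTC values, and METTL3-KO was the highest of the KO groups. The NTC mean was 31581 ± 789 (SD, n = 3), the KO mean was 4.24-fold lower, and the limma log2 change for all KO groups was -2.23 (SE 0.23, adjusted p = 9.99e-05). METTL3-KO held 36.7% of the NTC mean, METTL14-KO 13.7% and WTAP-KO 20.3%.

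EIF1AD, named for its domain shared with eIF1A, had 19517, 14532 and 18443 in the NTC libraries, 6701 and 5125 in METTL3-KO, 6276 and 2655 in METTL14-KO and 2459 and 1096 in WTAP-KO. Every KO library was below every NTC library. The mean fell 4.32-fold over the KO groups (log2 change -2.34, SE 0.37, limma adjusted p = 0.00101). The peak lies between EIF1AD and BANF1 and within 1 kb of a start of both in all 9 libraries, so it cannot be given to 1 gene.

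The subunits EIF3L and EIF3I of the eIF3 scaffold kept a peak at the same place in every library. EIF3L measured 11144, 12405 and 14008 in NTC, 4288 and 2996 in METTL3-KO, 1791 and 1573 in METTL14-KO and 809 and 1138 in WTAP-KO. EIF3I measured 9351, 10159 and 12494 in NTC, 4688 and 2306 in METTL3-KO, 1499 and 1589 in METTL14-KO and 794 and 921 in WTAP-KO. In both genes the groups did not overlap and stood in the order NTC, METTL3-KO, METTL14-KO, WTAP-KO. EIF3L fell 5.96-fold (log2 change -2.77, SE 0.22, limma adjusted p = 2.44e-05) and EIF3I 5.43-fold (log2 change -2.67, SE 0.27, adjusted p = 0.000106). EIF3L shares its peak with ANKRD54 and EIF3I with TMEM234 in all 9 libraries. After centring on the 665 genes marked in all libraries, which takes out a median log2 shift of -2.86 over the KO groups, the changes of EIF6 (0.62, adjusted p = 0.000508), EIF1AD (0.51, adjusted p = 0.246), EIF3I (0.16) and EIF3L (0.06) turned to the other sign, so these genes fell no more than the median of those 665. Dividing by the step kept the direction of these 4, but EIF6 (-0.85, adjusted p = 0.0991), EIF1AD (-0.96, adjusted p = 0.0952) and EIF3I (-1.30, adjusted p = 0.0612) no longer passed.

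**Figure D3:**
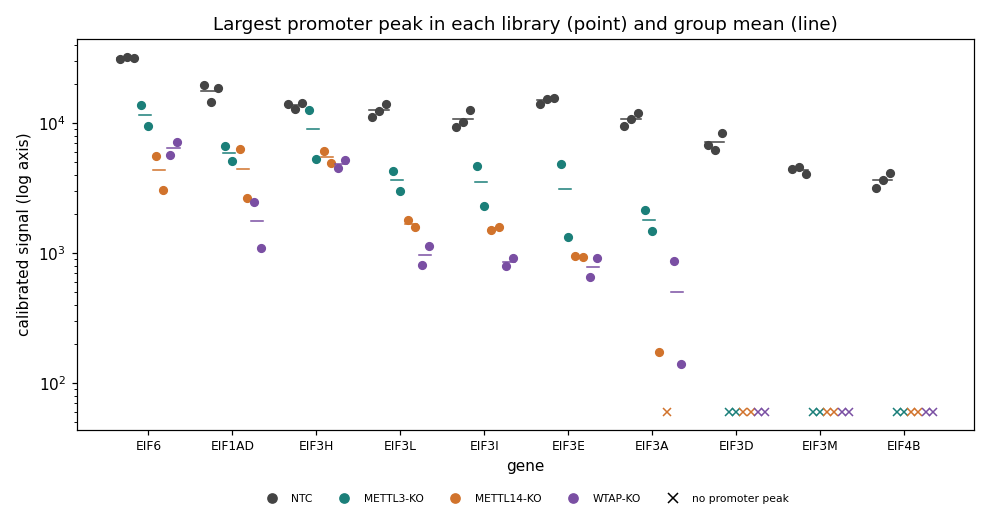
Points give the largest promoter peak (calibrated signal, log axis) of 10 EIF genes (horizontal axis) in each library, coloured by group, lines give group means where all libraries of the group have a peak, and crosses at the bottom stand for no peak. EIF6 lies at 30791 to 32369.5 in the NTC libraries and at 3027 to 13734 in the KO libraries, while EIF3D, EIF3M and EIF4B have crosses in all 6 KO libraries.

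The other 2 members with a peak in all 9 libraries, EIF3H and EIF3E, both eIF3 subunits, kept it partly at another start. EIF3H had 14104, 12872 and 14217 in NTC, 12674 and 5286 in METTL3-KO, 6070.1 and 4898 in METTL14-KO and 4514 and 5214 in WTAP-KO, which is 46.9% of the NTC mean over the KO libraries (log2 change -1.19, SE 0.28, limma adjusted p = 0.00628). Its change turned positive when values were divided by the step (0.20) or centred (1.66, adjusted p = 0.000161). In every KO library this largest peak was centred 10105 to 10284.5 bp upstream of the canonical start, also near a start of UTP23, where no NTC library had a peak. At the canonical start the KO peaks of EIF3H measured 6547 and 3201 in METTL3-KO, 1374 and 1398 in METTL14-KO and 849 and 2024 in WTAP-KO, below all NTC values, and the log2 change with the canonical start alone was -2.74 (adjusted p = 0.000338).

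EIF3E had 14054, 15164 and 15647 in NTC, but these peaks lay 194876 to 194942 bp upstream of its canonical start, at a distant annotated start that is also near EMC2. The KO values were 4842 and 1337 in METTL3-KO, 945 and 933 in METTL14-KO and 657 and 909.6 in WTAP-KO, and these peaks lay at the canonical start, where no NTC library had a peak. With any start the gene fell (log2 change -3.57, SE 0.41, limma adjusted p = 0.000202), but not past the threshold after centring (-0.74, adjusted p = 0.0635). With the canonical start alone it rose (5.39, adjusted p = 2.24e-05), but with no NTC peak there that p rests on the KO libraries. Counting only KO peaks that overlap an NTC promoter peak, 5 members (13.5%) kept a peak in all 6 KO libraries, against 6.32% of all marked genes, since EIF3E then had one in the METTL3-KO libraries alone.

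Peaks that remained were narrower and sat inside the NTC peaks. Of 149 KO promoter peaks of members, 87 overlapped an NTC promoter peak, and all 87 lay wholly within one. The other 62, from 12 genes, overlapped no NTC peak. EIF6 was 1925, 1941 and 1981 bp wide in NTC, 1261 and 1296 bp in METTL3-KO, 828 and 714 bp in METTL14-KO and 1053 and 1077 bp in WTAP-KO. EIF3I shrank from 1215 to 1486 bp in NTC to 188 and 287 bp in WTAP-KO, and these WTAP-KO peaks overlapped part of the window printed for it above. The largest promoter peaks of all members had a median width of 1070 bp in NTC (121 peaks, 27.3% over 1500 bp) and 420 bp in the KO libraries (116 peaks, 1.72% over 1500 bp).

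**Figure D4:**
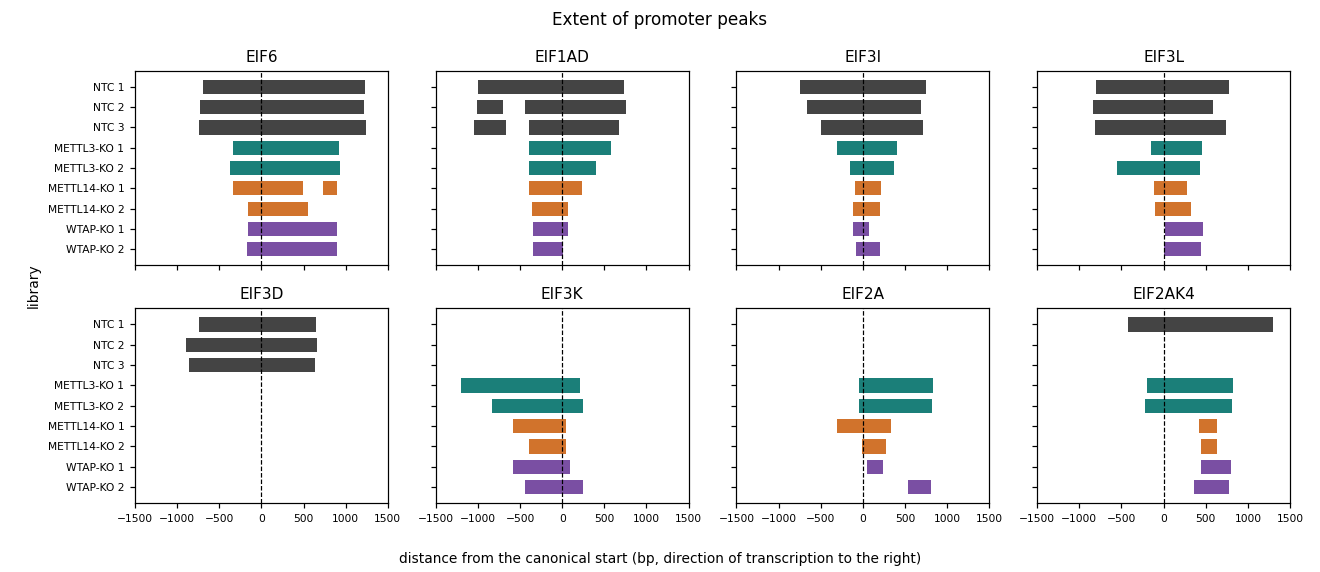
Bars give the extent of promoter peaks around the canonical start of 8 EIF genes (horizontal axis, distance in bp, transcription to the right) in the 9 libraries (vertical axis, coloured by group). KO bars of EIF6, EIF1AD, EIF3I and EIF3L lie inside the NTC bars, EIF3D has bars in NTC alone, EIF3K and EIF2A in KO alone, and EIF2AK4 in NTC replicate 1 and all KO libraries.

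The 13 members without a KO peak began lower, with NTC means from 455 to 7118 and a median of 2200.1, against 10668 to 31581 and a median of 14343 for the 6 kept in all KO libraries. The strongest of them was EIF3D, an eIF3 subunit that can bind the cap, with 6785, 6176 and 8392 in NTC and no peak in any KO library (7118 ± 1145, SD, n = 3, limma adjusted p = 1.53e-08). It lay in the seventh of the 10 bins of NTC signal, where 25.3% of all genes had no KO peak. EIF3M, another eIF3 subunit, had 4424, 4624 and 4068 (4372 ± 282, adjusted p = 1.26e-08). Of all genes in its bin of NTC signal, 48.1% had no KO peak. EIF4A1, the helicase gene, had 2976, 3924 and 3663 in NTC (adjusted p = 1.66e-08). EIF4B and EIF4H, whose products stimulate it, had 3189, 3644 and 4119.7 (adjusted p = 1.47e-08) and 2832, 3531 and 4266 (adjusted p = 3.53e-08), in that order. None of these 3 had a KO peak, as was so for 65.4% of all genes in the bin of NTC signal that holds them. EIF4E2, a cap-binding protein that represses translation, had 3026, 1216 and 2662 (adjusted p = 1.72e-06). EIF2B1, the alpha subunit of eIF2B, had 2786, 1694 and 2120.3 (adjusted p = 1.02e-07). EIF3CL had 1974, 1168 and 2015 (adjusted p = 3e-07), but EIF3C and EIF3CL are near-identical copies whose reads may be split between them, so both are uncertain. The other 5, EIF2D, EIF3C, EIF3F, EIF4G1 and EIF5, had NTC means from 455 to 1549.8.

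Roles are described by counts, beside the 46.3%, 73.3% and 84.9% of all genes marked in every NTC library that had no peak in METTL3-KO, in METTL14-KO and in WTAP-KO. The 12 members of the cap-binding and helicase group (eIF4) included 10 with a peak in every NTC library, of which 5 had a METTL3-KO peak, 1 a METTL14-KO peak and 0 a WTAP-KO peak, and all 10 were lower over the KO groups. The METTL14-KO peak was that of EIF4A3, the helicase of the exon junction complex, with 5521, 6327 and 8006 in NTC, 2171 and 1431 in METTL3-KO and 888 in METTL14-KO replicate 1. The 14 eIF3 members included 12 with a peak in every NTC library, of which 7 had a METTL3-KO peak and 5 a peak in both METTL14-KO and WTAP-KO, which are EIF3A and the 4 kept in every library. Levels differ between these lists, with a median NTC mean of 6690.1 for eIF3 and 5135 for eIF4, and no test of the difference between roles was made. The start-site group held 2 such members of 4, both with METTL3-KO and METTL14-KO peaks and 1 with WTAP-KO peaks. That 1 was EIF1AD, which is named for a domain and whose peak also lies near a start of BANF1. The group of subunit joining and later steps held 4 of 6. Of these 3 had METTL3-KO peaks, 2 METTL14-KO peaks and 1 a peak in WTAP-KO.

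EIF3A, the largest eIF3 subunit, had 9427, 10694 and 11852 in NTC, 2124 and 1472 in METTL3-KO, 174 in METTL14-KO replicate 1 and none in replicate 2, and 871 and 139.6 in WTAP-KO. No KO value reached the NTC range, and the drop passed over the KO groups (log2 change -4.81, SE 0.78, limma adjusted p = 0.00111) but not in METTL3-KO alone (adjusted p = 0.0565). The NTC and METTL3-KO peaks were centred 946.5 to 1165 bp inside the gene. Those of METTL14-KO and WTAP-KO were centred 239.5 to 271.5 bp upstream of the canonical start. Near these, peaks over that start measured 4578, 5595 and 6329 in NTC and 1975 and 868 in METTL3-KO.

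The list of eIF2 and initiator tRNA delivery holds EIF2A and EIF2D beside the eIF2 subunits. In it and the list of the exchange factor eIF2B, 5 members, EIF2D among them, were marked in every NTC library. Of these 0 had a WTAP-KO peak, where 84.9% of all such genes had none. EIF2S1, the alpha subunit that the kinases phosphorylate, had 6659.6, 5959 and 7052 in NTC, 625 and 201 in METTL3-KO and no other peak (all KO limma adjusted p = 2.65e-06). For eIF2B, 3 of 5 subunits were marked in all NTC libraries and all 3 fell, 2 kept a METTL3-KO peak, and EIF2B2 alone had a METTL14-KO peak (295, in replicate 1).

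Among the 4 eIF2 alpha kinases, EIF2AK3, the kinase of endoplasmic reticulum stress, was the 1 of 3 marked in all NTC libraries that had peaks in each KO group. It had 5754, 5498 and 7419.5 in NTC, 1624 and 1153 in METTL3-KO, 922 and 325 in METTL14-KO and 178 in WTAP-KO replicate 2 alone. The METTL3-KO value of 1624 was a peak centred 64994 bp upstream of the canonical start, and nearer to it that library had 1476. All KO values were below the NTC values, and the change over the KO groups passed (log2 change -3.95, SE 0.68, limma adjusted p = 0.00151), but not in METTL3-KO alone (adjusted p = 0.0649) or after centring (-1.49, adjusted p = 0.160). EIF2AK2, which senses double-stranded RNA, had 6371, 7667 and 12589.6 in NTC, 687 and 578 in METTL3-KO and no other peak (all KO adjusted p = 7.18e-07). EIF2AK1, the heme-regulated kinase, had 1287, 587 and 2030.1 in NTC and 905 in METTL3-KO replicate 1 (all KO adjusted p = 0.00682). Its NTC peaks were centred 32287 to 32471 bp inside the gene and its KO peak 566 bp from the canonical start, so they mark different starts. EIF2AK4, the sensor of amino acid starvation, had 20072 in NTC replicate 1 and no peak in the other NTC libraries, and 4498 and 1890.2 in METTL3-KO, 848 and 475 in METTL14-KO and 600.4 and 981 in WTAP-KO. Its fitted change over the KO groups was 2.14 (SE 2.22, adjusted p = 0.391) and passed as higher without NTC replicate 1 (5.27, adjusted p = 0.000235). That p rests on the KO libraries, since no NTC peak is left. The peak of NTC replicate 1 was 1722 bp wide.

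Paralogs were compared for the fate of their marks. EIF1, which guards start codon choice, had 4304, 8558 and 7852 in NTC, 572 and 471 in METTL3-KO and 314 in METTL14-KO replicate 1 (all KO log2 change -5.80, SE 0.76, limma adjusted p = 0.000385), and its paralog EIF1B had 13118 and 14282 in NTC replicates 1 and 3, no peak in replicate 2, and 1180.1 and 1374 in METTL3-KO. EIF1B passed as lower only without NTC replicate 2 (all KO adjusted p = 2.64e-06) or with strong peaks alone (adjusted p = 0.0337). The helicase gene EIF4A1 had no KO peak, whereas EIF4A2 had 8188, 7564 and 9273 in NTC and 1612 in METTL3-KO replicate 1 (all KO adjusted p = 0.00116). Of the 2 genes of eIF5A, the hypusine-bearing factor, EIF5A had 3588, 4924 and 5681 in NTC, 980.4 in METTL3-KO replicate 2 and 367 in METTL14-KO replicate 1 (all KO adjusted p = 0.00486), and EIF5A2 kept both METTL3-KO peaks. For the scaffold eIF4G, EIF4G1 was weakly marked (563, 346 and 457 in NTC) and had no KO peak (all KO adjusted p = 1.09e-06), while EIF4G2 and EIF4G3, with NTC means of 10723 and 7384, kept METTL3-KO peaks. EIF4ENIF1, which carries eIF4E into the nucleus, had 8702, 7213 and 9453 in NTC, 1439.9 and 1036 in METTL3-KO and 322 in METTL14-KO replicate 1. Its NTC and METTL14-KO peaks were centred 6523 to 6871.5 bp upstream of the canonical start, where METTL3-KO had 1407 and 341. The METTL3-KO values came from peaks centred 764.5 and 732 bp upstream, where NTC had 5391, 6551 and 8218.

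METTL3-KO was set against the average of the other KO groups. Of the 49 tested members 21 were higher in METTL3-KO and 0 lower (29.5% and 0.582% of all genes), which fell to 10 higher without METTL3-KO replicate 1 and to 10 when values were divided by the step, the measure in which METTL3-KO replicate 2 (1.07) is near the NTC libraries. After centring the split was 11 higher and 2 lower. No share over all genes is given for these alternatives. With limma the smallest adjusted p-values were those of EIF2B3, a subunit of eIF2B (203 and 273 in METTL3-KO, adjusted p = 5.79e-05), and EIF4G2 (784 and 528, adjusted p = 6.57e-05), neither of which had a METTL14-KO or WTAP-KO peak. Their NTC values were 6673, 6228 and 6786 for EIF2B3 and 8764, 12131 and 11275 for EIF4G2, so the METTL3-KO peaks were also far below NTC.

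The next 6 by that test had the same pattern, with a peak in both METTL3-KO libraries and none in METTL14-KO or WTAP-KO. EIF5A2 had 9016, 11003 and 12995 in NTC and 1444 and 816 in METTL3-KO (adjusted p = 6.77e-05), and EIF3B had 6564, 6146 and 6079 against 667 and 343 (adjusted p = 0.000103). EIF4G3 had 8046, 6065 and 8041 against 269 and 593 (adjusted p = 0.000271). The cap-binding protein gene EIF4E had 8581, 6640.1 and 11213 in NTC and 1952 and 623 in METTL3-KO (adjusted p = 0.000346). EIF2AK2 (adjusted p = 0.000121) and EIF2S1 (adjusted p = 0.000837) complete the list with the values given above. Of these 8, 6 lost the call when a peak had to cover a start, and all 8 when only peaks at least as strong as the median NTC peak counted.

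Against the fall elsewhere, 7 of the 49 tested members had no NTC peak and a peak in at least 2 KO libraries, where 15.1% of all tested genes did. These 7 were those higher over the KO groups. They met the rule of a peak in at least 2 libraries through their KO peaks alone. Their NTC libraries have no spread, so their limma p-values rest on the KO libraries and set called KO peaks against no NTC peak. EIF3K, an eIF3 subunit, had 5772 and 4111 in METTL3-KO, 2793 and 1428 in METTL14-KO and 1624 and 1519 in WTAP-KO (limma adjusted p = 1.51e-06). EIF2A, an alternative carrier of initiator tRNA, had 5425 and 2633 in METTL3-KO, 1188 and 671 in METTL14-KO and 384 and 257 in WTAP-KO (adjusted p = 6.87e-06). Neither had a peak in any NTC library, and both were highest in METTL3-KO and lowest in WTAP-KO by group mean. EIF3K shared its peak with MAP4K1 and EIF2A with SERP1 in 6 libraries each, so these peaks cannot be given to 1 gene. EIF2B5, the catalytic subunit of eIF2B, had 4695 in METTL3-KO replicate 2, 3706 and 2089 in METTL14-KO and 656 and 1401 in WTAP-KO (adjusted p = 0.0176).

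The remaining 4 had peaks in both METTL3-KO libraries and in METTL14-KO replicate 1. They were EIF2B4 of eIF2B (1861, 1006 and 249.9, adjusted p = 0.015), EIF3J of eIF3 (1789.5, 1306 and 399, adjusted p = 0.0209), EIF5B, the GTPase of subunit joining (2814, 1302 and 952, adjusted p = 0.0385), and EIF4EBP1, the eIF4E inhibitor controlled by mTOR (2186, 1178 and 639, adjusted p = 0.0324). EIF2B4 shared its peak with SNX17 and EIF5B with TXNDC9 in 3 libraries each. The nearest NTC peak to the canonical start lay 157056 to 157091 bp away for EIF2A, 172686 to 172759 bp for EIF3J, 149506 to 151227 bp for EIF5B, 28034 to 32757 bp for EIF3K, 19570 to 20314 bp for EIF2B5 and 9009 to 9369 bp for EIF2B4. For EIF4EBP1 it lay 1825 bp away in NTC replicate 1 and 49567 and 55339 bp in the others, and with a 3 kb window the gene did not pass (adjusted p = 0.175). Of these 7, 3 passed without NTC replicate 1, 2 or 3, and 3 without METTL3-KO replicate 1, but not the same genes. EIF2B5 did not pass without an NTC library, and EIF2B4 did not without METTL3-KO replicate 1. EIF2A and EIF3K passed under each library left out. With no NTC peak, leaving out an NTC library does not alter the fitted change, so it cannot test these calls.

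No list held a peak over 2000 bp, the 2 NTC peaks of EIF1B were 1978 and 1918 bp wide where the third NTC library had none, and its METTL3-KO peaks were 898 and 678 bp. The METTL3-KO peaks of EIF3K were 1420 and 1079 bp and that of EIF2B5 was 1530 bp. The tallest METTL3-KO peaks of the other 5 genes were 268 to 955 bp. EIF2S2, the beta subunit of eIF2, had a peak in METTL14-KO replicate 2 alone (signal 10415), and at 1646 bp it was the widest of all KO promoter peaks of members. The part of the width limit in the missing NTC peaks was not tested.

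**Figure D5:**
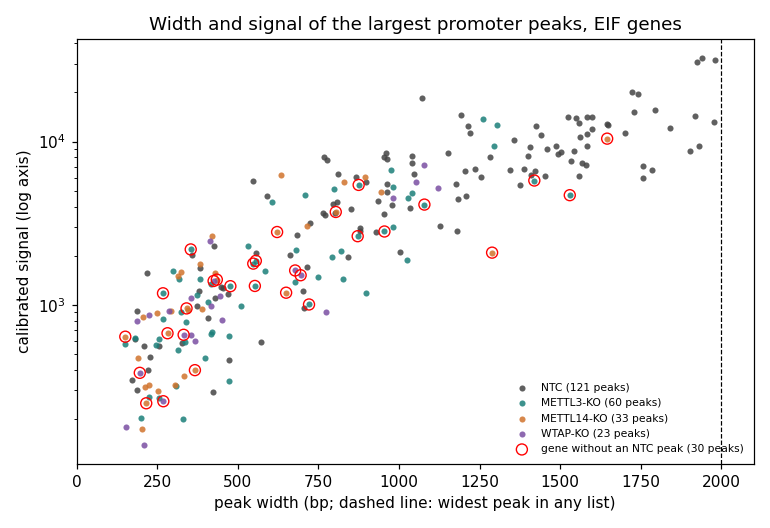
Points give the width (bp, horizontal axis) and calibrated signal (log axis) of the largest promoter peak of each EIF gene in each library, coloured by group, with red rings on genes without an NTC peak and a dashed line at 2000 bp, the widest peak in any list. Wider peaks tend to have a higher signal, for which no value was computed, the NTC points reach 1981 bp, and the KO points end at 1646 bp.

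The members marked in 1 or 2 NTC libraries were few and mixed. EIF4EBP2, an eIF4E inhibitor, had 8452 and 8209.6 in NTC replicates 2 and 3, EIF1AX, the X-linked gene of eIF1A, had 292 and 479.6 in replicates 1 and 3, and EIF2S3, the gamma subunit of eIF2, had 399 and 985 in replicates 1 and 2. None of these had a KO peak, and all 3 passed over the KO groups (limma adjusted p = 0.0335, 0.0363 and 0.0373) but in no KO group alone. None passed when any 1 KO library was left out (adjusted p from 0.0640 to 0.0865). EIF4E3 had 301 in NTC replicate 2 only and was not tested.

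Many of these promoters serve another gene as well. For 18 of the 51 members with any peak, the largest promoter peak lay within 1 kb of a start of another protein-coding gene in at least 1 library. This held in all NTC libraries for 4 of the 6 members kept in all KO libraries, for 3 of the 18 kept in some and for 4 of the 13 without a KO peak, where the shares over all genes were 31.0%, 27.4% and 19.2%.

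Other genes of translation, 35 elongation, release, poly(A)-binding and regulatory genes that are not members, were counted in the same way. With 22 marked in every NTC library, 33 were tested, of which 21 were lower and 5 higher over the KO groups (73% and 14.3% of all tested genes) and the others passed in neither direction. In METTL3-KO 17 were lower and 6 higher (60.9% and 14% of all tested genes). The counts were 21 and 2 in METTL14-KO (68.8% and 8.38%) and 21 and 3 in WTAP-KO (69.7% and 6.81%). Of the 22, 13 kept a METTL3-KO peak, 5 a METTL14-KO peak and 3 a WTAP-KO peak. Over all genes marked in every NTC library 53.7%, 26.7% and 15.1% did. No KO peak was left for 9 of the 22 (all such genes 45.8%). ABCF1, an ATPase that binds eIF2, was the 1 gene with a peak in all 6 KO libraries (all such genes 7.83%).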

How the data were processed

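H3K4me3 CUT&RUN libraries of HEL cells (NTC, 3; METTL3-KO, METTL14-KO and WTAP-KO, 2 each) were grouped by their labels. The authors aligned paired reads with Bowtie to hg19 and to the yeast genome sacCer3 of a spike-in, calibrated coverage by it, removed duplicates with Picard and called peaks in each library, and versions were not given in the sources used here. The deposited lists give a position and a signal in calibrated coverage units. The signal is not in fragments and its relation to them was not tested, so no count test was used. Starts were read as counted from 0.

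Peaks were assigned to starts of GENCODE 44 lifted to hg19. limma 3.58.1 (R 4.3.3) was run with the trend option on log2(largest promoter signal + 30.1), the smallest promoter signal, over all genes with a peak in at least 2 libraries, all 9 libraries in 1 model, threshold 0.05. A fold on this scale understates changes of weak genes. The remaining marker of other cell types is not reported here. Members, roles and other lists were chosen with earlier results of these data known. Genes named were those with a peak in all 9 libraries, the 8 strongest without a KO peak, the 8 smallest p-values of METTL3-KO against the others, the kinases, members with no or partial NTC marks, the paralogs EIF1, EIF4A, EIF5A and EIF4G, and members higher in KO. EIF3A, EIF4A3, EIF2B2 and EIF4ENIF1, and the 5 weaker lost genes, were named after their values were seen. Alternatives were other windows, starts, peak thresholds, gene filters, pseudocounts, scalings and libraries, the sum of peaks and a replicate block. Over 12 pairs of libraries with the same replicate number, deviations from the group means correlated between -0.0578 and 0.0950, and 0 were above 0.1. In a group of 2 the deviations mirror each other, so pairs of KO groups gave the same value for both numbers. No pairing by number was seen, but these values cannot settle whether there was any. Python 3.11.15 was used with scipy 1.17.1, numpy 2.4.6, pandas 2.3.3 and matplotlib 3.10.9.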

Additional observations from a re-analysis of the deposited data

Results flagged for a closer look

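The METTL3-KO effect differed from that of the METTL14-KO and WTAP-KO groups by limma's test of the difference in 21 of 49 tested members. All were higher in METTL3-KO, where 29.5% of all tested genes were higher and 0.582% lower. Without METTL3-KO replicate 1 it differed in 10 members, for which no share over all genes is given. The 8 members with the smallest adjusted p-values were EIF2B3 (5.79e-05), EIF4G2 (6.57e-05), EIF5A2 (6.77e-05), EIF3B (0.000103), EIF2AK2 (0.000121), EIF4G3 (0.000271), EIF4E (0.000346) and EIF2S1 (0.000837). Each had a peak in both METTL3-KO libraries and in no METTL14-KO or WTAP-KO library. Libraries without a peak have no spread, so these p-values rest on the NTC and METTL3-KO libraries. The step was 0.461 and 1.07 in the METTL3-KO libraries and 0.320 to 0.440 in the other KO libraries. Its part in the difference was not tested beyond the division by the step, which left 10 members.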

How the results depend on the processing

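Over all alternatives, 296 of the summary values moved by less than the spread, or for counts by less than 1.5 times, and 55 moved further, and of the values for single genes 936 stayed as reported in direction and call, 73 lost the call, 3 gained it and 9 changed sign. The strictest choice, taking only peaks at least as strong as the median NTC peak, moved most. It gave members marked at 33.9%, 14.5%, 8.06% and 18.8% of NTC (METTL3-KO, METTL14-KO, WTAP-KO, all KO), losses of 70.4%, 88.9%, 88.9% and 70.4%, a kept signal of 35.2% (20.8% as reported), and 2 members higher in METTL3-KO, 0 in METTL14-KO, 0 in WTAP-KO, 2 over all KO groups and 4 against the other groups. A peak that covers a start gave 47.2% marked in METTL3-KO and 19.4% in WTAP-KO, losses of 58.1% in METTL3-KO, 80.6% in WTAP-KO and 58.1% in any KO, and 3, 1, 3 and 9 higher members in METTL3-KO, WTAP-KO, all KO and METTL3-KO against the others. A 3 kb window gave 71.4% marked and 38.5% lost in METTL3-KO. The canonical start alone, chosen after seeing the data, gave 76.3% and 38.2%. Genes marked in at least 2 NTC libraries lost 39.0% in METTL3-KO and 80.5% in WTAP-KO. The filter on genes marked in all 3 NTC libraries leaves 0 higher members in METTL3-KO, METTL14-KO, WTAP-KO and all KO groups by construction. Dividing by the step left 21 lower in METTL3-KO, 10 higher against the others and a kept signal of 53.0%. Centring left 21 lower in METTL3-KO and 11 higher against the others, and gave 5 higher in WTAP-KO. Signs changed after centring for EIF6 (0.62), EIF1AD (0.51), EIF3H (1.66), EIF3I (0.16) and EIF3L (0.065), after division by the step for EIF3H (0.20), with the canonical start for EIF3E (5.39), and for EIF2AK4 with a peak covering a start (-0.92) and with strong peaks alone (-0.86). Where no value shows the cause, the cause was not tested. Counts of members called under an alternative stand without the share over all genes.

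Leaving out each library in turn gave METTL3-KO marked 74.1% to 75%, lost 35.1% to 43.2% in METTL3-KO, 64.9% to 81.1% in METTL14-KO and 78.4% to 81.1% in WTAP-KO, higher members 6 to 7 in METTL3-KO, 2 to 6 in METTL14-KO (6 without METTL14-KO replicate 2), 3 to 7 over all KO groups (4 without NTC replicate 1, EIF2AK4 among them) and 10 to 23 against the others. With a replicate block, although no pairing by number was seen, METTL3-KO marked was 74.1%, 3 members were higher over all KO groups and 13 against the others, and 29, 36, 38 and 38 were lower in METTL3-KO, METTL14-KO, WTAP-KO and all KO groups.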
